A study of Mus musculus with 83 samples.

Results

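TBP, the TATA-box-binding protein, is a subunit of initiation complexes of all the nuclear RNA polymerases. The genes described here encode TBP, its paralogs and the proteins that work with it or regulate it: Tbp, the paralogs Tbpl1 (whose protein is TRF2) and Tbpl2 (TRF3), the TBP-removing ATPase Btaf1, the RNA polymerase III (Pol III) factors Brf1, Brf2 and Bdp1, and the TBP repressor Dr1 with its partner Drap1. Slc2a12, a sugar transporter gene whose end overlaps that of Tbpl1, was added because Tbpl1 is deleted in one of the lines. They were taken by gene symbol and all 10 were found among the 27752 genes of the tables of the C64 line and the 55367 genes of the tables of the B8 line. What was measured was the RNA polymerase II (Pol II) bound over these genes, by CUT&Tag (cleavage under targets and tagmentation, which cuts and tags the DNA next to an antibody-bound protein), not their RNA or protein.

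As background, TBP bends promoter DNA and lets TFIIB and Pol II assemble there. On Pol III genes it is a subunit of TFIIIB, together with BDP1 and either BRF1, at tRNA and 5S rRNA genes, or BRF2, at U6 and similar genes whose promoter lies upstream. TRF2 does not recognise a TATA box and acts at some TATA-less promoters, and TRF3 takes the place of TBP in growing oocytes. BTAF1 strips TBP from DNA with the energy of ATP, and the DR1-DRAP1 dimer, called NC2, sits on TBP and keeps TFIIA and TFIIB out.

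All libraries came from mouse embryonic stem cells (mESCs) of JM8.N4 origin, in which histone H3.3 carries GFP and both Tbp alleles carry the mAID degron, so that indole-3-acetic acid (IAA, an auxin, 500 µM) depletes the TBP protein while the Tbp gene stays. C64 is the degron line. It gave 16 libraries in 8 groups of 2: in run 2, control cells, cells with IAA for 6 h, cells heat-shocked for 30 min (42 °C), and cells given both, and in run 3, control cells, cells with IAA for 16 h, cells with retinoic acid for 16 h, and cells with both. B8 is a single clone of C64 without Tbpl1, made with a pair of guide RNAs, and gave 8 libraries: control cells and cells with IAA for 6 h, 2 libraries each, in run 6 and in run 8. The study also lists a HaloTag on the largest subunit of Pol II in C64, from which B8 was made. The controls thus carry the degron and this tag too, and the study describes its control cells as given DMSO. The labels and the methods of the study state different concentrations of retinoic acid, and the libraries of run 2 and run 8 are called a and b here because their columns carry no replicate number of the labels.

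Library totals were taken over all 27752 genes of the C64 tables. A deposited library held 3854622 to 5056322 counts in C64, 900651 to 1157308 in B8 run 6 and 2330887 to 2523832 in B8 run 8. A count of 3 thus stood for 2.48 CPM (the count relative to the scaled total of its library, the unit of all levels below) in a B8 library of run 6. The labels do not say whether the libraries of a group came from separate cultures, and p-values therefore measure the spread between these libraries only. The second control library of B8 run 6 stood apart from the other B8 controls, with correlations of 0.877 to 0.902 with them where the others reached 0.942 to 0.974. Of 8 embryonic stem cell markers, 7 had counts in all libraries, and the eighth, Sox2, lies wholly inside another gene, where these tables count nothing. The summed level of the 7, per kilobase, was 11.2 to 37.2 CPM in C64 and 17.3 to 30.7 CPM in B8. Markers of other cell types also had counts, summed over unlike numbers of genes. The sums were 4.23 to 10.7 CPM per kilobase for 3 primitive endoderm genes and 2.06 to 7.91 for 2 mesoderm genes. They were 2.09 to 5.46 for 2 trophoblast genes, 0.601 to 2.19 for 2 fibroblast genes and 7.33 to 21.4 for 3 germ cell genes. Of the germ cell genes, Gdf9 had a median of 12.4, Zp3 of 1.03 and Figla of 0.404. The neuron markers Neurod1 and Tubb3 lie wholly inside other genes, as Sox2 does. The part of these cell types in the results was not tested. In such bulk samples, fewer cells with Pol II on a gene and less Pol II per cell cannot be told apart.

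How the counts were made sets what a value covers. The authors counted a fragment anywhere over a gene, on either strand, and a fragment that overlapped a second gene was counted for neither. Only 8500 of the 28060 bases of Tbpl1 (30.3%) and 20398 of the 28492 bases of Tbp (71.6%) lie outside every other gene of the tables. Pdcd2, which lies wholly inside Tbp, and Btbd6, inside Brf1, were accordingly listed at 0 in all 24 libraries. The last 741 bases of Brf1 by coordinate, which hold its start, are shared with 9230104M06Rik and hold no countable base. Levels per kilobase below are CPM per kilobase of countable bases.

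The guide RNAs that cut Tbpl1 and the bases in front of the start sites show where the deletion lies and what kind of promoter these genes have. The guides each matched the mm10 genome at 1 place, in Tbpl1 (chromosome 10, 22703879 to 22731938, minus strand), and are printed with their PAM in capitals:
guide 1 (chr10:22712031-22712050, plus strand): atcactgtctgcatccattgGGG
guide 2 (chr10:22705768-22705787, plus strand): gcaggtctcaaacggtgctcAGG
Guide 1 lies in exon 2 of 7 of the RefSeq transcript, with 18 of its 20 bases in coding sequence, and guide 2 lies in exon 7, past the end of the coding sequence. The cuts they direct, 3 bases from each PAM, enclose 6263 bases, from 22705785 to 22712047. That stretch is 22.3% of the span of Tbpl1, 560 of its 561 coding bases and 73.7% of its countable bases. A deletion between the cuts leaves the start of Tbpl1 in place and does not reach Slc2a12 (chromosome 10, 22645011 to 22704285, plus strand).

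The 60 bases before the RefSeq start site, on the strand of the gene and in the build GRCm38.p6, are shown for the TBP family itself, since these are the genes whose own promoters a TBP paralog could be asked about:
Tbp (chr17:15499828-15499887, plus strand): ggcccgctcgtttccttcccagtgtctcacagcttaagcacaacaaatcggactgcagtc
Tbpl1 (chr10:22731448-22731507, minus strand): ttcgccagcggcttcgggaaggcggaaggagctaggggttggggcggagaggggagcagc
Tbpl2 (chr2:24096596-24096655, minus strand): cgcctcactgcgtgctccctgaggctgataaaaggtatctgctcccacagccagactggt
RefSeq windows, from 250 bases before to 50 bases after the start, were matched for 8 of the 10 genes. The letters TATAAA, on either strand, were in 1 of the 8, that of Drap1, at 161 bases before the start, and in 13.6% of 32851 windows of all genes. On the lists of promoters deposited with the series, Tbpl1 was among the TATA-containing ones, Slc2a12 was on neither list, and the other 8 were among the TATA-less ones.

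Ordered by their median level per kilobase in the 16 C64 libraries, the genes ran from Drap1 at 4.99 (1.98 to 7.58), Brf1 at 2.83 (1.54 to 3.27), Btaf1 at 2.22 (1.74 to 2.92) and Brf2 at 2.12 (0.898 to 4.48) down to Bdp1 at 1.82 (1.17 to 2.29), Tbp at 1.79 (1.08 to 2.19), Tbpl1 at 1.16 (0.724 to 1.85), Dr1 at 0.664 (0.422 to 1.203), Slc2a12 at 0.277 (0.122 to 0.489) and Tbpl2 at 0.113 (0.00852 to 0.230). The ranges of all neighbours in this order overlapped. Over all 24 libraries, 92.0% of 22606 genes with at least 500 countable bases had a lower median level per kilobase than Drap1 and 17.3% a lower one than Tbpl2, around a median of 0.832 CPM per kilobase over these genes. Tbp, with 70.8% of genes below it, sat beside the Pol III factors Brf2 (71.3%) and Bdp1 (71.2%).

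**Figure D1:**
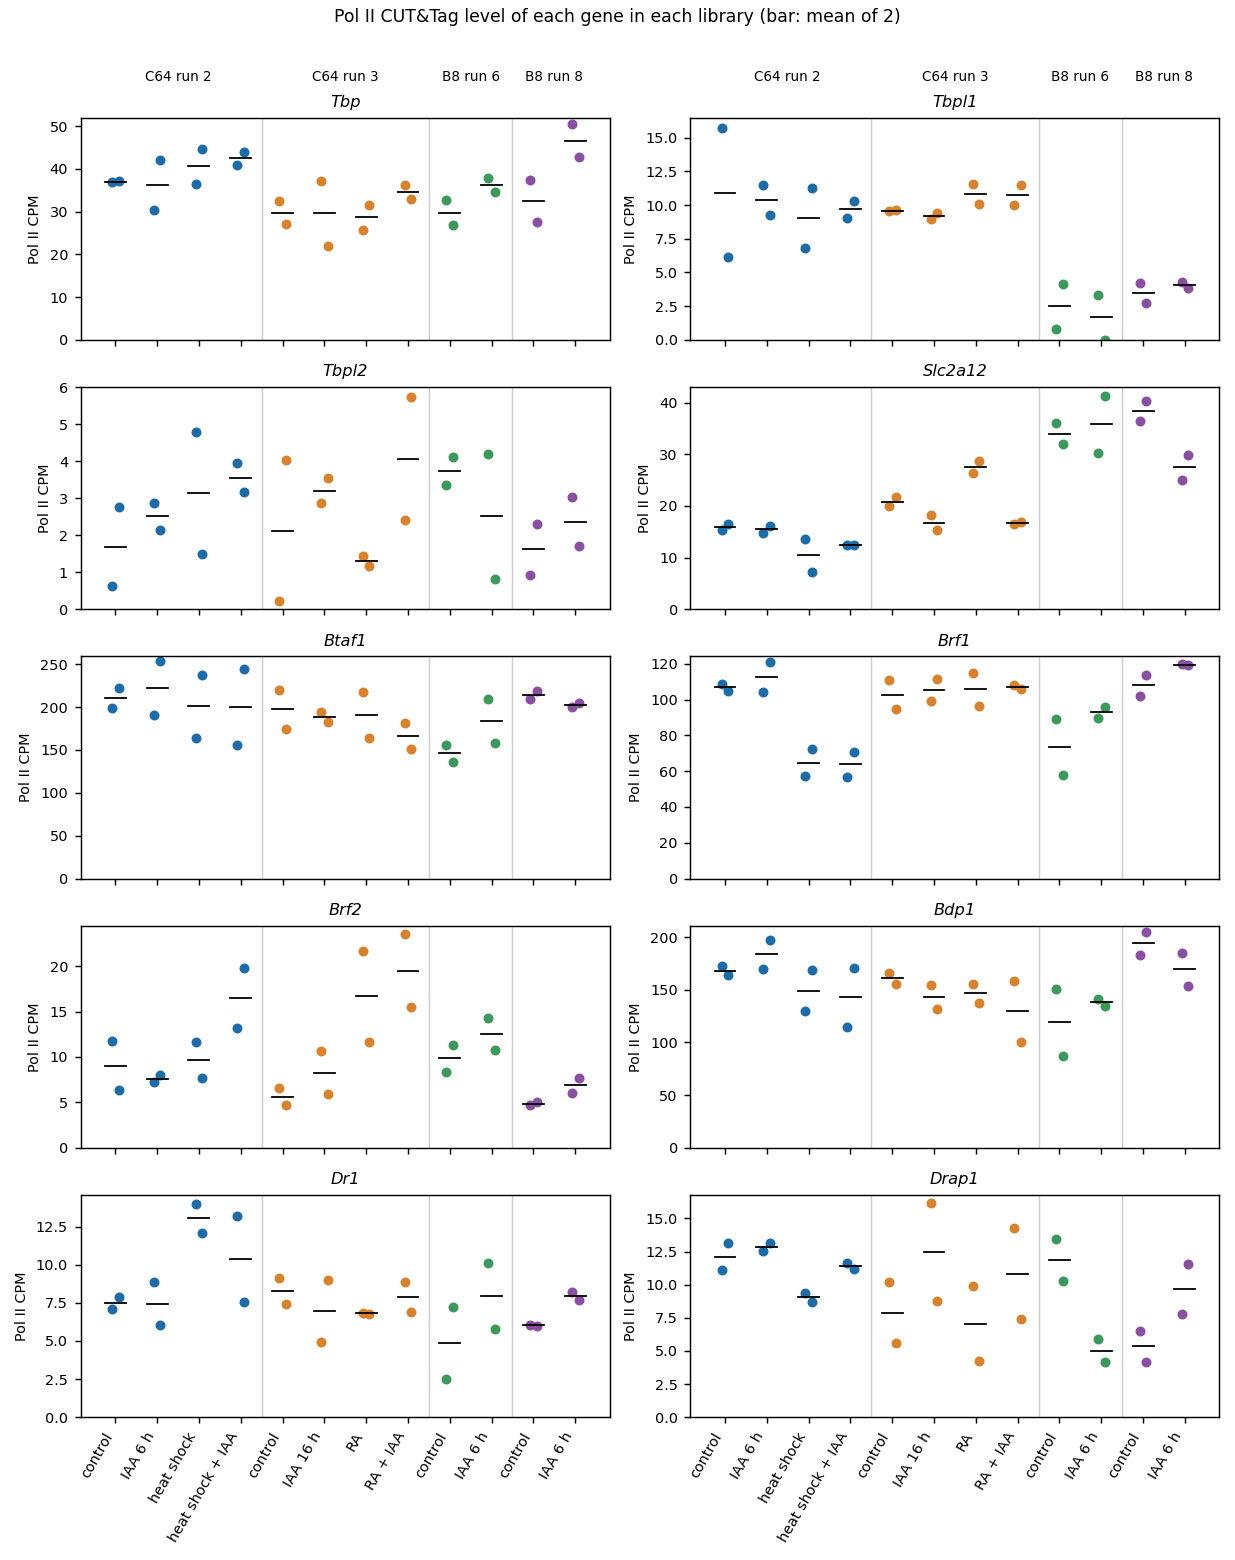
Level of each of the 10 genes in CPM (linear axis from 0), with 1 point per library, a bar at the mean of the 2 libraries of a group, and the groups of C64 and B8 along the horizontal axis. Tbpl1 is at 6.16 to 15.7 CPM in the 16 C64 libraries and at 0 to 4.32 CPM in the 8 B8 libraries, and Slc2a12 is at 7.21 to 28.8 CPM in C64 and at 25.1 to 41.3 CPM in B8.

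Tbpl1, the targeted gene, had 29 to 75 counts in the C64 libraries and 0 to 10 in the B8 libraries. Its level was 10.0 ± 2.15 CPM (SD, n = 16) in C64, with the lowest library at 6.16, the median at 9.84 and the highest at 15.7. In B8 it was 2.93 ± 1.65 CPM (SD, n = 8), with the 8 libraries at 0.839, 4.12, 4.21 and 2.76 CPM without IAA and at 3.36, 0, 4.32 and 3.85 CPM with it. The count of 0 allows a level of up to 2.48 CPM, and such limits cover counting error only. With so few counts in B8, Tbpl1 fell under the low-count filter of the comparison of B8 with C64 controls and was not tested there. Without that filter the fitted log2 difference was −1.87 ± 0.56 (SE), with a 95% interval of −3.06 to −0.67 and an adjusted p of 0.906 by edgeR's quasi-likelihood test. With the B8 controls of run 8 alone, Tbpl1 was tested and had an adjusted p of 0.0804 by the same test. That fit called 5.24% of genes. Over the 4 alternatives that fitted Tbpl1, the one without the filter among them, the log2 difference was −2.36 to −1.68. The stretch between the cuts holds 73.7% of the countable bases of Tbpl1, and deleted bases give no fragments. A lower count in B8 was therefore set by the deletion, and these values do not measure a change of Pol II on the gene. The positions of the fragments that remained in B8 are not given by a count per gene.

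**Figure D2:**
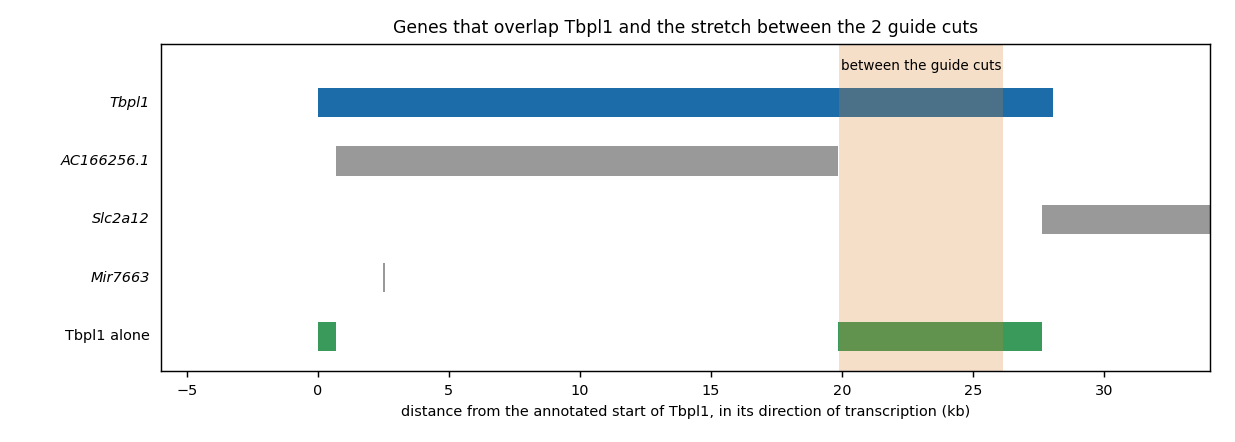
Map of Tbpl1 and the genes that overlap it, with distance from the annotated start of Tbpl1 in its direction of transcription (kb) along the axis, 1 bar per gene, the stretch between the guide cuts shaded, and in the lowest row the bases of Tbpl1 that no other gene covers. The shaded stretch covers 73.7% of these countable bases, leaves the start of Tbpl1 in place and does not reach Slc2a12.

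Slc2a12, which encodes the transporter GLUT12, was higher in B8 controls than in C64 controls in every library. It stood at 15.3 and 16.6 CPM in the C64 controls of run 2, at 19.9 and 21.7 CPM in those of run 3, and at 36.1, 31.95, 36.4 and 40.4 CPM in the B8 controls. The B8 controls did not overlap those of run 2, as for 7.96% of all genes in that direction. The share against the controls of run 3 was not counted. The log2 difference of B8 against the run 2 controls was 1.19 ± 0.22 (SE), with a 95% interval of 0.70 to 1.68. Its adjusted p was 0.609 by the quasi-likelihood test, which called 0% of 14622 genes in this comparison, with 860 at an unadjusted p under 0.05, where DESeq2 called 8 genes higher and 8 lower and gave Slc2a12 no adjusted p. The likelihood-ratio test that the study used gave the gene an adjusted p of 0.00716 and called 0.144% of genes. With the B8 controls of run 8 alone the log2 difference was 1.24 ± 0.22 and the adjusted p 0.00584, in a fit that called 5.24% of genes, and with those of run 6 alone it was 1.12 ± 0.31 and 0.0582, in a fit that called 3.61%. Against the C64 controls of both runs it was 0.99 ± 0.19 with an adjusted p of 0.442. No run holds Pol II controls of both lines, so that line and run cannot be told apart. The nearest gene on the same side, Raet1e, gave 0.63 ± 0.38 in this comparison, and Tcf21, on the other side of Tbpl1, was listed at 0 in all libraries.

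For the other 6 genes tested between the lines, the interval of the difference held 0. The log2 difference of B8 against C64 controls was −0.24 ± 0.22 for Tbp, −0.23 ± 0.25 for Btaf1, −0.23 ± 0.25 for Brf1, −0.39 ± 0.48 for Brf2, −0.10 ± 0.30 for Bdp1 and −0.58 ± 0.45 for Drap1. Of the 7 genes tested, 4 had a 95% interval within 2-fold in either direction, against 61.2% of all genes, so larger differences cannot be set aside for Brf2, Drap1 and Slc2a12.

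The main question of the study was what depletion of TBP does to Pol II, and for the Tbp gene itself the comparison shows whether its own occupancy moved when its protein was removed. In C64 it stood at 36.8 and 37.1 CPM without IAA and at 30.4 and 42.0 CPM after IAA for 6 h. In run 3 it stood at 32.4 and 27.1 CPM in controls and at 37.2 and 21.95 CPM after IAA for 16 h. The libraries with IAA lay on both sides of the controls in each run. The log2 fold change was −0.03 ± 0.20 at 6 h, with an interval of −0.48 to 0.43, and 0.02 ± 0.30 at 16 h, with an interval of −0.67 to 0.70. Under heat shock it was 0.09 ± 0.24 and under retinoic acid 0.28 ± 0.25. Both intervals for IAA alone lay within 2-fold in either direction. With spike-in scaling the one at 16 h ran from −6.64 to 7.28, and no tested gene of the 10 had an interval within 2-fold. The spike-in reads were 0.531% (control) and 0.508% (IAA) of the genome reads in replicate 1, and 8.44% and 13.6% in replicate 2. That fit held no replicate block, so its intervals include this difference between replicates and cannot bound the effect of IAA.

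In B8 the Tbp values were 32.7 and 26.8 CPM in the controls of run 6 and 37.8 and 34.7 CPM with IAA, and 37.4 and 27.6 CPM in the controls of run 8 and 50.6 and 42.8 CPM with IAA. With the runs pooled, the means were 31.1 ± 4.94 CPM in controls and 41.5 ± 6.92 CPM with IAA (SD, n = 4), and these pooled groups overlapped. With run as a block, the log2 fold change was 0.44 ± 0.17, with an interval of 0.07 to 0.81, an unadjusted p of 0.0239 and an adjusted p of 0.170. Run 6 alone gave 0.24 ± 0.32 with an adjusted p of 0.802 in a fit that called 0.121% of genes, and run 8 alone gave 0.57 ± 0.20 with an adjusted p of 0.0399 in a fit that called 18.0%. The difference between the IAA effect in B8 and that in C64 was 0.46 ± 0.28 on the log2 scale, with an adjusted p of 0.808. Over all 24 libraries and 6 contexts, the effect of IAA on Tbp was 0.18 ± 0.10, with an interval of −0.03 to 0.38 and an adjusted p of 0.575. Psmb1, a proteasome gene whose start lies 137 bases from that of Tbp on the other strand, gave −0.01 ± 0.16 with IAA in B8.

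None of the 10 genes passed the test after IAA in any context. This held for 9 genes tested after 6 h in C64 (0.0433% of 16157 genes called), 9 after 16 h (0% called), 10 under heat shock (0%), 9 under retinoic acid (0%), 5 in B8 (5.36% of 14357 genes called, 325 higher and 444 lower, or 631 higher and 239 lower with scaling to library size alone), 10 over the 6 contexts (0.797%) and 9 in the difference between B8 and C64 (0.0848%). The comparisons with 0% called had 319, 160 and 104 genes at an unadjusted p under 0.05, in the order given, and DESeq2 called 4, 0 and 0 genes in them and none of the 10. With the replicates of a run as blocks, 1.19%, 2.16%, 0.650%, 1.04%, 2.47% and 3.84% of genes were called in the first 6 of these, and still none of the 10 genes. Tbpl1 gave −0.07 ± 0.40 after 6 h in C64, with an interval of −0.96 to 0.82 and values of −0.58 to 0.75 on leaving out a library, and −0.04 ± 0.33 after 16 h. Over the 6 contexts Tbpl1 gave 0.00 ± 0.18, with an interval of −0.37 to 0.38. That fit and the difference between B8 and C64 (0.13 ± 0.76 for Tbpl1) include the B8 libraries, where Tbpl1 is deleted. For this gene, neither can show a response to IAA in B8 or its absence. Tbpl2 was under the low-count filter after 6 h and 16 h in C64.

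Tbpl2, which acts in oocytes, had 1 to 24 counts per library, or 0.212 to 5.73 CPM, and over the 6 contexts its log2 fold change with IAA was 0.56 ± 0.34 with an interval of −0.13 to 1.26. At this depth a change within that interval cannot be set aside. Its mean was 1.31 ± 0.195 CPM (SD, n = 2) with retinoic acid and 4.07 ± 2.35 CPM with retinoic acid and IAA, on 5 and 7 counts against 12 and 24, and it was under the filter of that comparison. Btaf1, at 136 to 253 CPM the best counted of the genes, gave 0.01 ± 0.09 over the 6 contexts, with an interval of −0.18 to 0.20. Dr1 gave 0.04 ± 0.17 and Drap1 0.33 ± 0.19 over the 6 contexts. Among the Pol III factors, Brf1 gave 0.09 ± 0.08, Bdp1 −0.04 ± 0.10 and Brf2 0.35 ± 0.17, the last with an unadjusted p of 0.0452 and an adjusted p of 0.475. The intervals of 9 of the 10 genes lay within 2-fold over the 6 contexts, against 98.8% of all genes, and that of Tbpl2 did not. The 9 include Tbpl1, which is deleted in the B8 libraries of that fit.

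Slc2a12 had the lowest unadjusted p of the 10 under IAA in retinoic acid-treated cells. It stood at 26.4 and 28.8 CPM with retinoic acid and at 16.5 and 17.0 CPM with retinoic acid and IAA, with no overlap, as for 9.69% of genes in that direction. The log2 fold change was −0.71 ± 0.26, with an interval of −1.34 to −0.09, an unadjusted p of 0.0316 and an adjusted p of 1.0, and with replicates as blocks the adjusted p was 0.173. Without retinoic acid, IAA for 16 h gave −0.29 ± 0.26 for this gene. The difference between its retinoic acid effects with and without IAA was −0.41 ± 0.33 and did not pass the test.

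**Figure D3:**
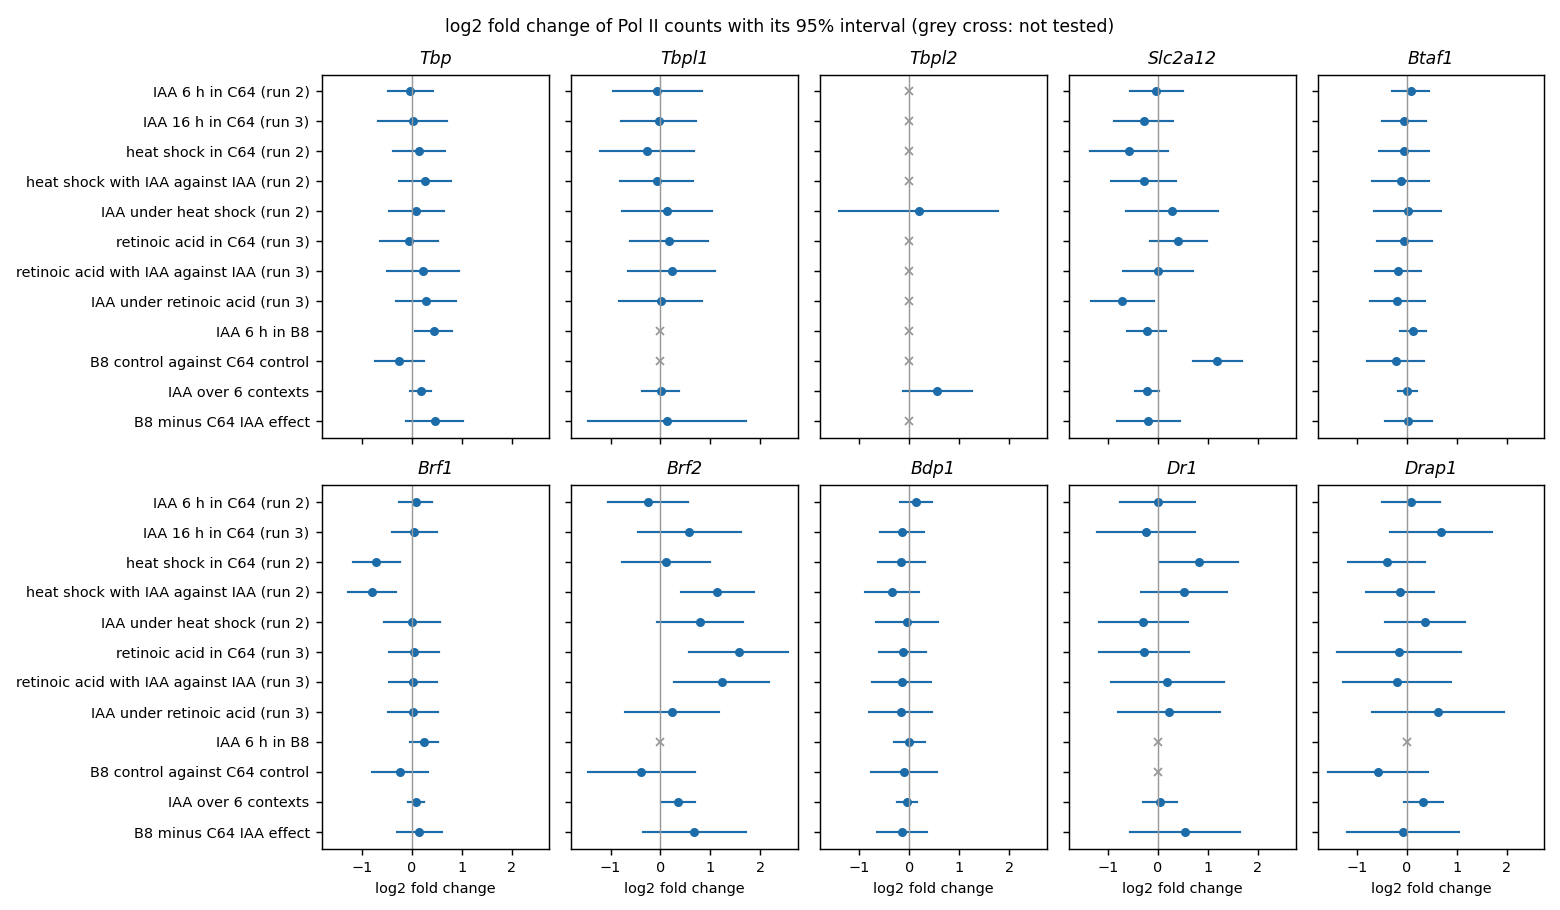
Log2 fold change of each of the 10 genes in each of the 12 comparisons (points) with its 95% interval (bars) from edgeR's quasi-likelihood fit, with a line at 0 and a grey cross where the gene was not tested. The interval of Brf2 lies above 0 with retinoic acid (0.58 to 2.55), that of Brf1 lies below 0 with heat shock (−1.18 to −0.24), and those of Btaf1 and Bdp1 hold 0 in all comparisons.

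Heat shock was the treatment with the lowest p for Brf1, the TFIIIB subunit of tRNA and 5S genes. Brf1 stood at 109 and 105 CPM (521 and 495 counts) in the run 2 controls and at 57.4 and 72.3 CPM (287 and 341 counts) after heat shock. In cells with IAA it stood at 104 and 121 CPM, and with IAA and heat shock at 57.0 and 70.6 CPM. All 4 heat-shocked libraries lay below all 4 others of the run, and how many genes share this was not counted. Within each comparison the groups did not overlap, as for 23.2% of genes in that direction without IAA and 24.2% with it. The log2 fold change was −0.71 ± 0.22 without IAA (interval −1.18 to −0.24) and −0.80 ± 0.22 with it (interval −1.28 to −0.31). The adjusted p was 0.105 and 0.0925, so neither passed, where 3.02% of 16332 genes and 1.60% of 16486 genes were called. With the libraries a and b as blocks, both passed, with log2 fold changes of −0.72 and −0.80 and an adjusted p of 0.0249 and 0.00679, in fits that called 8.41% and 10.5% of genes. The letters come from column names alone. Deviations of libraries of the same letter from their group means correlated at 0.157 without IAA and 0.207 with it. On leaving out each library in turn, the adjusted p ran from 0.00228 (without library b of the heat-shocked cells) to 0.679 (without library a of the controls), and in cells with IAA from 0.00316 (without library b of those heat-shocked) to 0.709 (without library b of those not heat-shocked). The effect of heat shock on Brf1 with IAA minus that without was −0.08 ± 0.28, and the IAA effect under heat shock was −0.0003 ± 0.25 with an interval of −0.56 to 0.56. 9230104M06Rik, whose span holds the start of Brf1, gave −0.95 ± 0.34 after heat shock with an adjusted p of 0.155, and −0.35 ± 0.31 after heat shock with IAA. Its part in the values of Brf1 was not tested, but fragments over the 741 shared bases were counted for neither gene.

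Brf2, the subunit that takes the place of BRF1 at U6-type genes, had its highest values of the run elsewhere. It stood at 11.7 and 6.37 CPM (56 and 30 counts) in the run 2 controls, 7.19 and 7.97 CPM with IAA, 11.6 and 7.63 CPM after heat shock, and 13.2 and 19.8 CPM (70 and 94 counts) after heat shock with IAA. The libraries with both treatments were the highest of the run, and how many genes share this was not counted. Heat shock gave a log2 fold change of 0.11 ± 0.42 without IAA and of 1.14 ± 0.34 with it, with an interval of 0.41 to 1.87 and an adjusted p of 0.109. The groups with IAA did not overlap, as for 24.2% of genes in that direction. With the libraries a and b as blocks it was 1.12 ± 0.34 and passed, with an adjusted p of 0.0147. That pairing rests on the column names, as for Brf1. On leaving out each library in turn, the adjusted p ran from 0.0345 (without library a of the cells with both treatments) to 0.49997 (without library a of the cells with IAA). The difference between these effects of heat shock was 1.04 ± 0.54, with an unadjusted p of 0.0792 and an adjusted p of 1.0, so an effect of heat shock that depends on IAA was not shown. IAA under heat shock gave 0.79 ± 0.38 with an unadjusted p of 0.0681, without overlap, as for 11.5% of genes in that direction.

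In run 3, Brf2 stood at 6.57 and 4.71 CPM (31 and 21 counts) in the controls and at 21.7 and 11.7 CPM (105 and 50 counts) with retinoic acid. With IAA it stood at 10.6 and 5.90 CPM without retinoic acid and at 23.5 and 15.5 CPM (117 and 65 counts) with it. The 4 libraries with retinoic acid were the highest of the run, and how many genes share this was not counted. Within each comparison the groups did not overlap, as for 17.1% of genes in that direction without IAA and 16.4% with it. The log2 fold change was 1.56 ± 0.42 (interval 0.58 to 2.55) without IAA and 1.23 ± 0.41 (interval 0.28 to 2.17) with it, with an adjusted p of 0.554 and 0.9999. The quasi-likelihood test called 0.0183% and 0% of genes in these comparisons, with 1008 and 629 genes at an unadjusted p under 0.05, and DESeq2 called 34 genes higher and 33 lower in the second. With replicates 1 and 2 as blocks, the first passed with 1.54 ± 0.34 and an adjusted p of 0.000154, in a fit that called 11.4% of genes, and the second did not, with 1.25 ± 0.33 and an adjusted p of 0.0563, in a fit that called 1.82%. On leaving out each library in turn, the log2 fold change without IAA was 1.03 to 1.93 and its adjusted p ran from 0.0385 (without the second library with retinoic acid) to 0.661 (without the first). With IAA the log2 fold change was 0.86 to 1.71 and the adjusted p ran from 0.0314 (without the second library with both treatments) to 0.9999 (without the second library with IAA alone). The difference between the effects with and without IAA was −0.33 ± 0.61.

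Brf2 (chromosome 8, 27123364 to 27128680, minus strand) ends against Adgra2 on the other strand, with 73 shared bases that were counted for neither. Adgra2, an adhesion receptor gene, stood at 67.2 and 63.2 CPM in the run 3 controls and at 102 and 77.0 CPM with retinoic acid, and gave a log2 fold change of 0.46 ± 0.22, with an adjusted p of 0.863, or 0.0154 with the block. With IAA, retinoic acid gave 0.86 ± 0.25 for it, with an adjusted p of 0.891, or 0.00567 with the block, and heat shock gave 0.52 ± 0.23 with an adjusted p of 0.271. Without IAA, heat shock gave 0.48 ± 0.23 for Adgra2, with an adjusted p of 0.327. The counts take no account of strand, and the part of Adgra2 in the values of Brf2 was not tested.

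**Figure D4:**
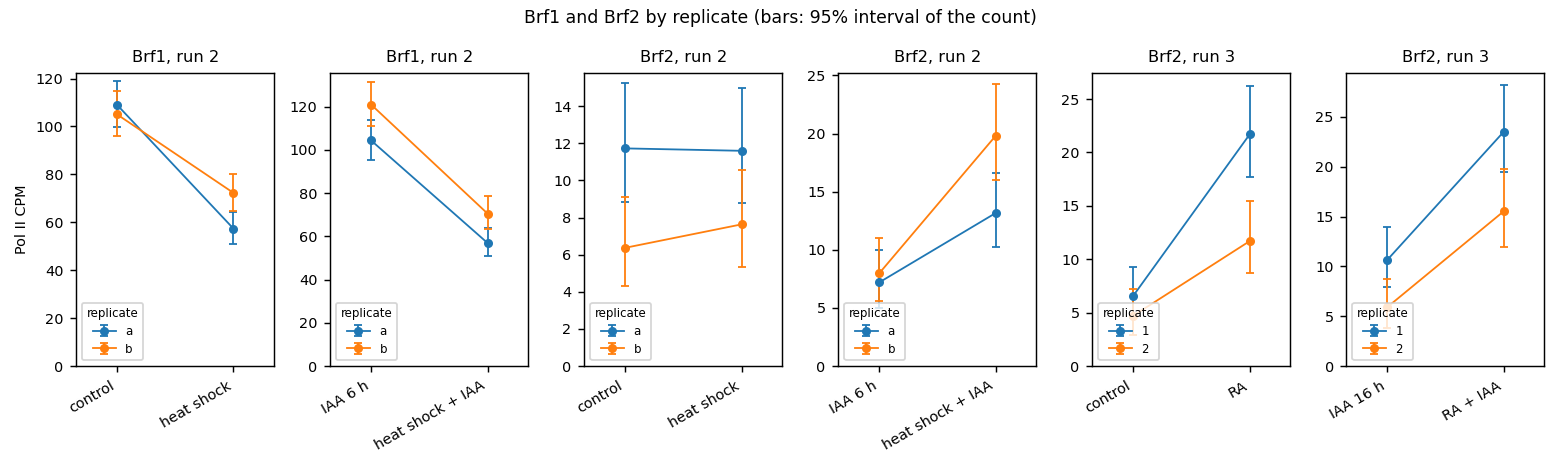
CPM of Brf1 in run 2 and of Brf2 in runs 2 and 3 (linear axes from 0), with lines that join the libraries of the same letter or replicate number and bars for the 95% interval of the count in each library. Brf1 is at 57.0 to 72.3 CPM in the 4 heat-shocked libraries and at 104 to 121 CPM in the other 4 of run 2, and Brf2 is at 11.7 to 23.5 CPM in the 4 libraries with retinoic acid (RA) and at 4.71 to 10.6 CPM in the other 4 of run 3.

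Bdp1, the third TFIIIB subunit and the one common to both forms, stood at 172 and 164 CPM in the run 2 controls, 130 and 168 CPM after heat shock, 170 and 197 CPM with IAA and 115 and 171 CPM with both. Library a was the lower one after heat shock with and without IAA, and the groups overlapped. The log2 fold change was −0.16 ± 0.22 with heat shock and −0.34 ± 0.25 with heat shock and IAA, with intervals of −0.63 to 0.31 and −0.88 to 0.20. On leaving out each library in turn, the latter was −0.68 to −0.11, with an adjusted p from 0.0314 (without library b of the cells with heat shock and IAA) to 0.974. With retinoic acid the log2 fold change of Bdp1 was −0.13 ± 0.20.

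Dr1, at 7.12 and 7.85 CPM (34 and 37 counts) in the run 2 controls, stood at 13.99 and 12.1 CPM (70 and 57 counts) after heat shock. Its log2 fold change was 0.82 ± 0.37 with an unadjusted p of 0.0417 and an adjusted p of 0.286. With IAA the libraries overlapped and it was 0.52 ± 0.40. Its partner Drap1 gave −0.41 ± 0.37 and −0.14 ± 0.31 in the same comparisons. For Tbp, heat shock gave 0.15 ± 0.25 and, with IAA, 0.26 ± 0.24, and for Btaf1 −0.06 ± 0.24 and −0.13 ± 0.27. Only 4 of the 9 genes tested with heat shock and 6 of the 9 tested with retinoic acid had intervals within 2-fold, against 56.1% and 56.7% of all genes.

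Other genes of these pathways were described by lists. Of 13 other Pol III initiation genes (the TFIIIC subunits, TFIIIA, the SNAPc subunits and the repressor Maf1), none was called by the quasi-likelihood test in any comparison. Their median log2 fold change was 0.07 after IAA for 6 h and −0.06 after 16 h, where that of all genes was 0.00 and 0.01. It was −0.27 with IAA under heat shock, where that of all genes was −0.01, and −0.25 with heat shock and −0.35 with heat shock and IAA, where that of all genes was 0.03 and 0.04. With the replicate block, whose fits called 8.41% of all genes with heat shock, 10.5% with heat shock and IAA and 11.4% with retinoic acid, Gtf3c1, the largest TFIIIC subunit, fell with heat shock, with a log2 fold change of −0.69 (adjusted p = 0.0304), and with heat shock and IAA, with one of −1.001 (adjusted p = 0.000232). Snapc4, a SNAPc subunit, rose with heat shock by 0.96 (adjusted p = 0.0306), and with retinoic acid Gtf3a (TFIIIA) fell by 0.94 (adjusted p = 0.0459) and Snapc2 rose by 0.61 (adjusted p = 0.0138).

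Of 6 Pol I factors, the TBP-containing SL1 subunits and their partners, Taf1d was the only one called by the quasi-likelihood test. With IAA in B8 it fell by 1.07 ± 0.13 on the log2 scale (adjusted p = 0.000349), in a fit that called 5.36% of genes. Over the 6 contexts it fell by 0.76 ± 0.17 (adjusted p = 0.0197), in a fit that called 0.797%. With the replicate block it was also called lower with IAA for 6 h, for 16 h, under heat shock and under retinoic acid, with log2 fold changes of −0.67, −0.66, −0.69 and −0.57, and with heat shock, at −0.94, and with heat shock and IAA, at −0.97. These fits called 1.19%, 2.16%, 0.650%, 1.04%, 8.41% and 10.5% of all genes, in the order given. Rrn3, the factor that brings Pol I to SL1, was called lower with retinoic acid in the block fit, at −0.85 and with IAA at −0.68, and Ubtf with retinoic acid alone at −0.36, in fits that called 11.4% of all genes without IAA and 1.82% with it. Of 5 Pol II factors that bind TBP or a paralog, 4 were tested and none was called by the quasi-likelihood test. The block fit called Gtf2a1 (−0.85), which encodes a TFIIA subunit, and Gtf2b (−0.65), which encodes TFIIB, lower with heat shock and IAA. That fit called 10.5% of all genes.

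Across the 16 C64 libraries, centred on run, the log2 CPM of Btaf1 and Bdp1 went together, with r = 0.84, as did those of Brf1 and Bdp1 (0.60) and of Btaf1 and Brf1 (0.51). Tbp had its highest correlation among these genes with Brf2, at 0.42. Among 17614 genes, those most like Tbp were Mrpl43 (0.82), Taok3 (0.81), Cobll1 (0.80), Zfp169 (0.78) and 4930453N24Rik (0.78), and those most like Btaf1 were Lrp5 (0.96), Etl4 (0.96), Med27 (0.95), Fnip2 (0.94) and Ric1 (0.94). These correlations share their libraries and the scaling of each library, and are given as descriptions.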

How the data were processed

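Pol II CUT&Tag libraries of C64 (16) and B8 (8) were used. The authors aligned reads to mm10 with Bowtie2, kept PCR duplicates, subsampled the libraries of a run and, per the file headers, counted fragments over whole genes of the Ensembl annotation with featureCounts 2.0.0. The deposited values are these counts, not normalized, and other deposited columns used here were gene coordinates and the numbers of genome and spike-in reads. Repeated columns of a library in several tables (14 pairs) held the same counts.

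CPM was computed over the 27752 genes of the C64 tables with trimmed-mean (TMM) scaling. Each comparison was fitted over all genes with edgeR 4.0.16 in R 4.3.3 (TMM, filterByExpr with a minimum count of 20, quasi-likelihood F test, two-sided, Benjamini-Hochberg adjusted over all genes tested, threshold 0.05). Log2 fold changes are given with their SE and a 95% interval. Run was a block for IAA in B8, and context in the fits over 6 contexts and of B8 against C64. Alternatives were DESeq2 1.42.0, edgeR's likelihood-ratio test, RLE or library-size scaling, scaling to spike-in reads, no low-count filter, a joint fit of a run, a replicate block, single runs and leaving out each library. The limit that a count of 0 allows is 3 counts, intervals of counts are exact Poisson ones, and both cover counting error only. The scripts were tested on simulated data.

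Libraries of the same number deviated together in run 3 (r of deviations from the group means 0.422 to 0.627), so that the numbers were taken to pair them. In run 2 the letters, which come from the column names alone, gave 0.109 to 0.497. The highest was between heat shock and heat shock with IAA. In runs 6 and 8 the values were −0.0554 and 0.0011, and no pairing was assumed there except in the replicate block for IAA in B8.

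All 10 genes are named. Of the lists of Pol III, Pol I and Pol II factors, those that passed a threshold are named, with overlapping genes, the nearest neighbours of Tbp and Tbpl1, and the 5 genes most correlated with Tbp and with Btaf1. The genes, lists and comparisons were chosen with earlier results of these data known. Promoter sequences are those of RefSeq (GRCm38.p6) and guide sequences those of the study.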

Additional observations from a re-analysis of the deposited data

How the results depend on the processing

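Of 1473 fold changes of the 10 genes under an alternative, 1307 kept their direction and side of the threshold, 143 changed sign within both standard errors, 17 passed the threshold where the quasi-likelihood fit had not, and none of those that passed was lost, since none had passed. The number of the 10 genes called, 0 in every comparison, rose with the replicate block to 1 for heat shock (Brf1), 2 for heat shock with IAA (Brf1 and Brf2) and 1 for retinoic acid (Brf2), and the block changed no other call of these genes. The block fits of heat shock, heat shock with IAA and retinoic acid called 8.41%, 10.5% and 11.4% of all genes. The number became 2 for heat shock with IAA by the likelihood-ratio test (Brf1 and Brf2), which called 376 genes higher and 424 lower of 16486. Without the low-count filter it was also 2 (Brf1 and Brf2), with 411 genes higher and 544 lower of 23362. It became 1 for IAA in B8 with run 8 alone (Tbp), in a fit that called 18.0% of genes. Between the lines it became 1 (Slc2a12) with B8 run 8 alone, where 5.24% of genes were called, and by the likelihood-ratio test, where 0.144% were. Leaving out a library gave 0 to 1 genes for heat shock, 0 to 2 for heat shock with IAA, 0 to 1 for retinoic acid and 0 to 1 for retinoic acid with IAA.

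Signs turned by more than a standard error for Tbpl1 with IAA for 6 h (−0.58 to 0.75 on leaving out a library), Tbp with IAA for 16 h (−0.44 to 0.35), Bdp1 with IAA in B8 (−0.15 to 0.095, and −0.15 with run 8 alone), Slc2a12 with IAA in B8 (0.0266 with run 6 alone) and Bdp1 between the lines (0.17 with B8 run 8 alone). The cause was not tested. Calls over all genes moved far more, to 193 and 353 with the block for IAA at 6 h and 16 h, from 159 to 1373 for heat shock (120 to 2589 on leaving out a library), from 217 to 1739 for heat shock with IAA (95 to 2786), to 1863 for retinoic acid, from 15 to 2666 for IAA in B8 and to 785 between the lines. With 1 to 24 counts for Tbpl2 and 0 to 10 for Tbpl1 in B8, depth limits these genes most. Spike-in scaling was run for run 3 alone: the B8 columns could not all be tied to spike-in numbers.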
